A study of Homo sapiens with 16 samples.

Results

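A set of 10 genes that neurons or ciliated cells are known for, STMN4, STMN2, STMN3, CELF3, FOXJ1, SNAP25, SYT4, SCG2, CHGA and VGF, was followed through glioblastoma cells given a miR-137 mimic. They are 10 of the 20626 genes counted in U343 and of the 20314 counted in U251. They were picked by name as a group labelled as raised over low control levels in U343, a rise seen in 6 of the 10. U251 and U343 are established human glioblastoma lines, and each was transfected with a control mimic or a miR-137 mimic at 25 nM and harvested after 48 h. Total RNA (RNASeq) and RNA pulled down with antibodies to the poly(A)-binding protein PABP (RIPSeq) were sequenced, with 2 libraries in each of the 8 groups and 16 libraries in all. The labels do not say whether the 2 libraries of a group came from separate cultures, so p-values measure only the spread between these libraries. The cDNA kit differed between U251 and U343, so line and kit cannot be told apart.

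The stathmins bind tubulin and regulate microtubules, and STMN2, STMN3 and STMN4 are the members of that family best known from neurons. SCG2, CHGA and VGF are carried in dense-core granules, the vesicles that store neuropeptides, whereas SNAP25 and SYT4 belong to the machinery that fuses vesicles with the plasma membrane. CELF3 is an RNA-binding protein of the nervous system, and FOXJ1 is the transcription factor that turns on the genes of motile cilia, among them those of ependymal cells. In most other cells many neuronal genes are held down by the repressor REST, which binds a DNA element called RE1.

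The mature strands of the transfected microRNA are shown because the seed, bases 2 to 8 and here in capitals, sets which transcripts it pairs with. They come from RefSeq on GRCh38.p14, from chr1:98046091-98046113 and chr1:98046127-98046149 on the minus strand. Which strand the mimic carries as its guide is not given in the sources used here.
hsa-miR-137-3p: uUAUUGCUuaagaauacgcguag
hsa-miR-137-5p: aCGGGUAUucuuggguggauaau

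RefSeq promoter windows of 300 bases, 250 before the start and 50 after it, matched 5 of the 10 genes (STMN3, CELF3, SYT4, CHGA and VGF). The 3 printed here set VGF and CELF3, which were higher with miR-137 in U343, beside CHGA, which had few reads there. Capitals mark the cyclic-AMP response element (CRE) TGACGTCA. VGF lies at chr7:101165520-101165819 on the minus strand, CELF3 at chr1:151716754-151717053 on the minus strand and CHGA at chr14:92922900-92923199 on the plus strand of GRCh38.p14.
VGF: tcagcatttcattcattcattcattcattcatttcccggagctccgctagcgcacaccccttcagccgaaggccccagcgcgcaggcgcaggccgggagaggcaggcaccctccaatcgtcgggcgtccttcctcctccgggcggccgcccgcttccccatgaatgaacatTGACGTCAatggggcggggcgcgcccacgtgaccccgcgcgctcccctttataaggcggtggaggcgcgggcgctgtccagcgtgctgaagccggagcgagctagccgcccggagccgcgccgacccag
CELF3: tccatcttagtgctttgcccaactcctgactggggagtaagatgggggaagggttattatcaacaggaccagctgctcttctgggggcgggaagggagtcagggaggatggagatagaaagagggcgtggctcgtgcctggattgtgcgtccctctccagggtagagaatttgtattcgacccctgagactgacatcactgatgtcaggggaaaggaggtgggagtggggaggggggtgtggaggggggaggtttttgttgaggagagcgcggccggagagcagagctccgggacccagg
CHGA: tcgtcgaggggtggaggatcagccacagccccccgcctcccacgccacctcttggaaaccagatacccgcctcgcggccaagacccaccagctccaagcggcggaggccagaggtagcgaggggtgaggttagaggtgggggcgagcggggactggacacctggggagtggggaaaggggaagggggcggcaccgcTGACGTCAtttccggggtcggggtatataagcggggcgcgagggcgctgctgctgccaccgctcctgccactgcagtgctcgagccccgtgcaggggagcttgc

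The 4 motifs were searched on both strands, and none of the matches overlapped another. The CRE lay 79 bases before the start in VGF and 54 bases before it in CHGA, and 1.85% of 35116 promoters of the same length held it. VGF also held GGACAGC, the right part of RE1, on the reverse strand 7 bases before the start (6.03% of promoters) and TATAAA on the reverse strand 32 bases before the start (11.5% of promoters). TTCAGCACC, the left part of RE1, was in none of the 5 windows (0.376% of promoters). These matches are letters in a window and not sites, and VGF and CHGA held the same CRE with very different reads in U343.

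Libraries held 10156675 to 18224061 reads in U251 RNASeq, 22359794 to 30731476 in U251 RIPSeq, 37952273 to 45134766 in U343 RNASeq and 37736206 to 45055184 in U343 RIPSeq. The 2 libraries of a group differed beyond counting error in every group, most of all the U251 RIPSeq controls (mean chi-square per gene 216) and the U343 RNASeq miR-137 libraries (174.6), against 2.457 to 21.92 in the other 6 groups. Olfactory receptor genes, taken here as not expressed, gave a median of 0 to 3 reads in U251 libraries and 0 to 1 in U343 libraries, and their 95th percentile was 1 to 7 and 2 to 4 reads. Levels are given as reads, or as CPM, read counts scaled to library depth with the TMM factors of edgeR, with the SD over n = 2 libraries. The tables hold no transcript lengths that were used here, so levels are compared within a gene and not between genes. Glial lineage markers summed to 11655 to 14060 CPM in U343 RNASeq and 6017 to 12681 CPM in U251 RNASeq, and ALDH1L1 and OLIG2 were under 1 CPM in every library. In U251 RNASeq controls most of the sum was VIM (8187 CPM) and CD44 (3586 CPM), with GFAP at 32.0 CPM. In U343 RNASeq controls most of it was VIM (5872 CPM) and GFAP (4598 CPM). The sum rests on these few genes and was not used to test the origin of the lines.

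The label of the group was borne out for 6 of the 10 genes. In U343, STMN4, STMN3, CELF3, FOXJ1, SCG2 and VGF were higher with miR-137 in RNASeq and in RIPSeq, with no overlap between the libraries of the groups. The libraries of SNAP25 in both assays and of SYT4 in RIPSeq did not overlap either. With 2 libraries a group such separation alone sets no gene apart, and its share over all genes was not counted. STMN2 had 0 reads in all 8 U343 libraries, a count that allows up to 3 reads in each. SNAP25, SYT4 and CHGA had 0 to 18 reads per U343 library and were left out of the fits by the filter on low counts. Over the 6 genes the median was, on the log2 scale, 4.81 in RNASeq and 4.52 in RIPSeq, beside 0.0225 and 0.00487 over all genes tested. The same contrast chose the genes, so these values are a description and were not tested. In bulk RNA, more cells of a kind and more RNA per cell cannot be told apart. For reference, 8.31% of the 15088 genes tested in U343 RNASeq passed an adjusted p of 0.05 as higher and 11.7% as lower, and 28.5% and 27.8% of 14866 did so in U343 RIPSeq.

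**Figure D1:**
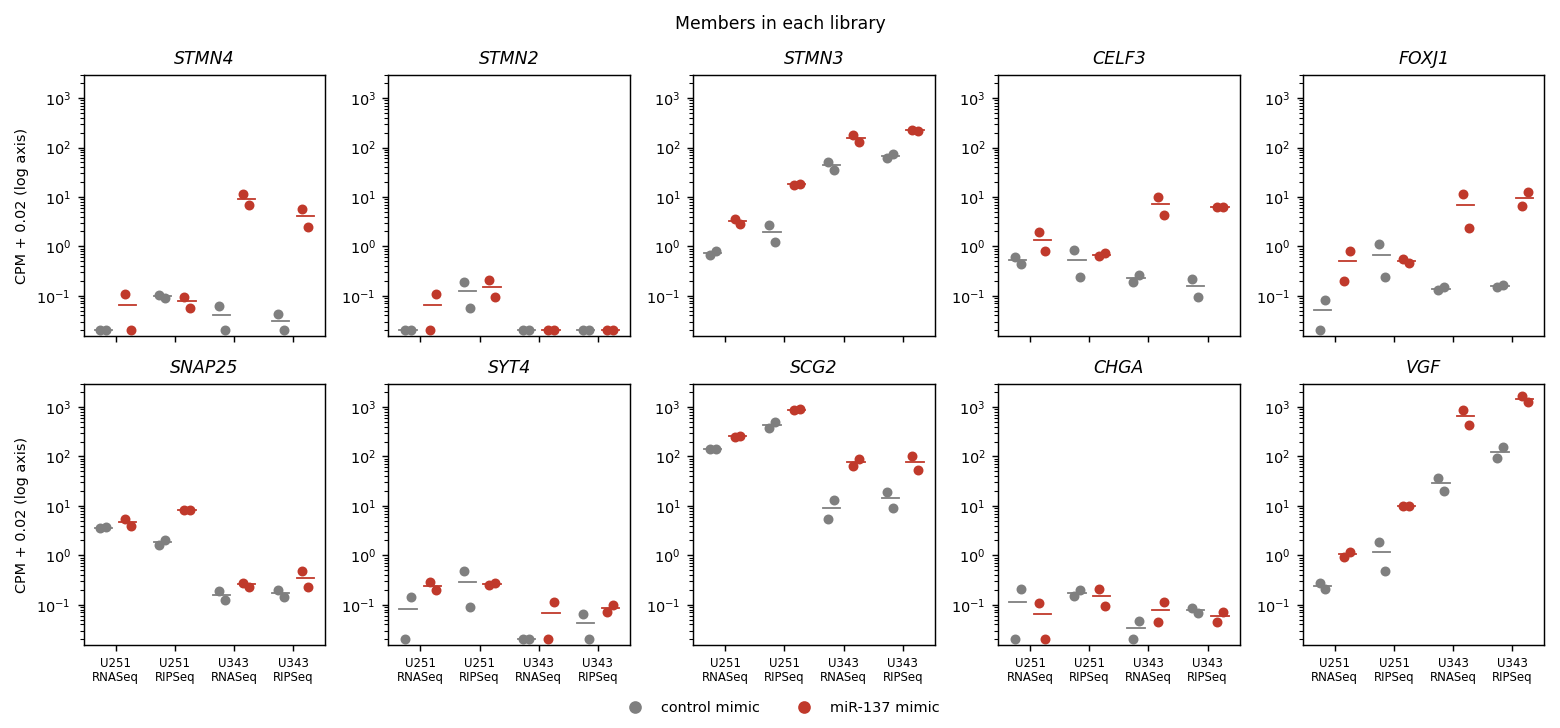
Level of each of the 10 genes in every library, as CPM plus 0.02 on a log axis, by cell line and assay. Gray points are control mimic libraries, red points miR-137 mimic libraries and bars the mean of 2 libraries. The red points stand above the gray ones in both U343 assays for STMN4, STMN3, CELF3, FOXJ1, SCG2 and VGF, and at low levels for SNAP25. STMN2 lies at the bottom in all 8 U343 libraries.

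STMN4 was next to absent from U343 controls and well covered with miR-137. Its RNASeq control libraries held 2 and 0 reads and its miR-137 libraries 488 and 294 reads. In RIPSeq the controls held 1 and 0 reads and the miR-137 libraries 218 and 95. All 4 miR-137 libraries stood far above the 4 controls, and above the 95th percentile of olfactory receptor genes. Summed over libraries and scaled to their TMM-adjusted depth, miR-137 reads over control reads came to 389 in RNASeq (exact 95% interval 107 to 3216) and 343.3 in RIPSeq (61.2 to 13602), intervals that cover counting error only and not copies made by PCR. By fitted fold change STMN4 ranked 1 of 15088 genes in U343 RNASeq and 13 of 14866 in RIPSeq, at a fitted value of 8.44 and 8.09 on the log2 scale that rests on a control count of 2 and 1 reads. Leaving out a control library moved it between 7.65 and 11.6 in RNASeq and between 7.31 and 10.3 in RIPSeq.

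STMN3, unlike STMN4, was already covered in U343 controls. In RNASeq it stood at 51.3 and 35.8 CPM in controls and at 176 and 128 CPM with miR-137, and in RIPSeq at 60.3 and 73.5 CPM against 227 and 215 CPM. The groups did not overlap in either assay. The log2 fold change was 1.81 in RNASeq and 1.73 in RIPSeq, a ratio of 3.43 (3.31 to 3.56) and 3.32 (3.22 to 3.42). STMN2 had no reads in either group, so the 3 neuronal stathmins did not share a change in U343. STMN1, the widely expressed stathmin and not one of the 10 genes, fell by 0.61 on the log2 scale in RNASeq (SE 0.10, edgeR adjusted p = 0.0256) and by 1.22 in RIPSeq (SE 0.08, adjusted p = 1.95e-05).

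CELF3 had 8 and 9 reads in U343 RNASeq controls and 420 and 180 with miR-137. RIPSeq gave 9 and 3 reads in controls and 245 and 240 with miR-137. The ratio was 35.1 (21.7 to 60.7) and 44.3 (25.1 to 86.4). The 2 RNASeq libraries with miR-137 differed by more than the 2 RIPSeq ones, at 9.97 and 4.24 CPM against 6.27 and 6.13.

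FOXJ1 had few reads in U343 controls, with 5 and 5 reads in RNASeq and 6 and 6 in RIPSeq. With miR-137 it had 486 and 101 reads in RNASeq and 253 and 501 in RIPSeq. Its miR-137 libraries were the most uneven of the 6 genes in RNASeq, 11.5 and 2.38 CPM, yet all 4 stood over 10 times above every control. The ratio was 58.4 (31.5 to 122) in RNASeq and 68.9 (39.2 to 134) in RIPSeq. Leaving out the higher RNASeq library, miR-137 replicate 1, took the log2 fold change from 5.83 to 4.29.

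Among the granule genes VGF stood at 37.0 and 20.3 CPM in U343 RNASeq controls and at 871 and 435 CPM with miR-137. In RIPSeq it stood at 91.1 and 153 CPM in controls and at 1673 and 1294 CPM with miR-137. These were the highest values VGF had in any group, and the ratios were 22.1 (21.2 to 23.0) and 12.3 (12.1 to 12.6). SCG2 stood at 5.52 and 12.9 CPM in RNASeq controls and at 64.8 and 87.6 CPM with miR-137, and at 19.3 and 9.02 CPM against 102 and 52.9 CPM in RIPSeq. Its ratios were 8.64 (8.01 to 9.34) and 5.37 (5.05 to 5.72). With 1 library left out at a time the log2 fold change ran in RNASeq from 2.58 to 3.80 for SCG2, from 3.92 to 5.01 for VGF, from 1.56 to 2.10 for STMN3 and from 4.37 to 5.601 for CELF3. In RIPSeq it ran from 1.89 to 3.10 for SCG2, from 3.28 to 4.02 for VGF, from 1.59 to 1.87 for STMN3 and from 4.93 to 6.33 for CELF3, the last without control replicate 1 against 5.44 with all libraries. The genes were chosen on this contrast, so these ranges describe how far 1 library moved a value and are no test.

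The other vesicle genes had few reads in U343. SNAP25 had 8 and 4 reads in RNASeq controls and 11 and 9 with miR-137, and 8 and 5 against 18 and 8 in RIPSeq, a ratio of 1.66 (0.772 to 3.72) and 2.19 (1.09 to 4.65). CHGA had 0 to 4 reads and SYT4 0 to 4 reads in any U343 library, a range in which olfactory receptor genes also lie. At so few reads no direction is read for SNAP25, CHGA or SYT4.

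The position of the genes was taken from the deposited coordinates on hg18, where none overlapped another gene. Within 100 kb of VGF, on chromosome 7 from 100592510 to 100595572 on the minus strand, 9 neighbours were tested: 4 of 9 were higher with miR-137 in U343 RNASeq and 5 of 9 in U343 RIPSeq by edgeR, beside 8.31% and 28.5% of all genes, with the highest log2 fold change at 3.30 and 3.37. STMN3 had 10 tested neighbours, of which 0 passed in either direction in RNASeq and 3 were higher and 1 lower in RIPSeq. The highest log2 fold change among them was 4.60 in RNASeq and 5.93 in RIPSeq. In RNASeq no tested neighbour of STMN4, STMN2, CELF3, FOXJ1, SNAP25 or CHGA was higher by edgeR either, and in RIPSeq 2 of 2 were for STMN4, 2 of 6 for CELF3, 2 of 5 for FOXJ1, 1 of 2 for CHGA and none for STMN2 and SNAP25, each with 1 tested. In each assay 1 tested neighbour was lower for CELF3, for FOXJ1 and for SNAP25. SCG2 and SYT4 had no neighbour within 100 kb.

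In U251 the same genes were tested, because the label that picked them names a rise in U343. Earlier results of these data were known when they were picked, so U251 is not an independent test. RNASeq took 5 of the 10 into the fit, and 4 of these passed as higher: STMN3, CELF3, SCG2 and VGF. STMN3, CELF3 and VGF met the low-count filter only through their miR-137 libraries, so the count of calls and the median lean upward. With every gene of at least 1 read kept, STMN3, SCG2 and VGF passed and CELF3 did not (edgeR adjusted p = 0.115). Among all 13052 genes tested, 28.7% passed as higher and 29.0% as lower, so a change as such was common there. The median log2 fold change was 1.41 for the 5 and 0.0153 over all genes. STMN3 had 10 and 13 reads in controls and 40 and 32 with miR-137 (log2 fold change 2.15, SE 0.34, edgeR adjusted p = 0.000125). VGF had 4 and 3 reads in controls and 10 and 13 with miR-137 (2.19, SE 0.54, edgeR adjusted p = 0.00366). SCG2 was at 145 and 140 CPM in controls and at 249 and 259 CPM with miR-137 (0.84, SE 0.13, edgeR adjusted p = 8.50e-05).

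CELF3 had 9 and 7 reads in U251 RNASeq controls and 21 and 9 with miR-137 (log2 fold change 1.41, SE 0.50, edgeR adjusted p = 0.0267). Its call rests on miR-137 replicate 1: without that library the value was 0.68 (edgeR adjusted p = 0.435), and without control replicate 2 it was 1.21 (adjusted p = 0.0594). DESeq2 kept STMN3 and SCG2 above the threshold in U251 RNASeq, and CELF3 (adjusted p = 0.143) and VGF (0.0552) missed it. SNAP25 had 55 and 61 reads in controls and 60 and 43 with miR-137 and did not pass (0.35, SE 0.25, edgeR adjusted p = 0.244). STMN4, STMN2, SYT4, CHGA and FOXJ1 had 0 to 9 reads per library and were not tested.

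In U251 RIPSeq 6 of the 10 entered the fit and 1 passed, SNAP25, where 0.944% of 14087 genes passed as higher and 0.263% as lower. SNAP25 had 38 and 56 reads in controls and 216 and 221 with miR-137 (2.17, SE 0.26, edgeR adjusted p = 0.0491). That call is borderline, and it was lost when either miR-137 library was left out (adjusted p = 0.295 and 0.271), with upper-quartile scaling (0.0504) and with every gene of at least 1 read kept (0.0939). STMN3 had 62 and 33 reads in controls and 463 and 499 with miR-137 (3.24, SE 0.46, edgeR adjusted p = 0.0631). VGF had 43 and 13 against 262 and 266 reads (3.12, SE 0.65, edgeR adjusted p = 0.111). SCG2 stood at 380 and 502 CPM in controls and at 861 and 900 CPM with miR-137 (0.997, SE 0.22, edgeR adjusted p = 0.121).

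The libraries of these 3 genes did not overlap between groups, which with so few libraries sets no gene apart. The spread in U251 RIPSeq came with the controls, which disagreed more than any other pair. Control replicate 1 also had a median of 3 reads over olfactory receptor genes against 1 in control replicate 2, and it held 25 reads of FOXJ1, 19 of CELF3 and 11 of SYT4 against 6, 6 and 2. The part of that background in these values was not tested. FOXJ1 gave a log2 fold change of -0.37 (SE 0.85) and CELF3 of 0.37 (SE 0.73), and each changed sign without a control library, FOXJ1 to 1.17 without replicate 1 and CELF3 to -0.36 without replicate 2. Without control replicate 1 the fit called 5 of the 6 genes higher and without control replicate 2 it called 4 higher and FOXJ1 lower (-1.17, edgeR adjusted p = 0.0182), in fits where the lone control was assumed to vary like the miR-137 libraries. Without either miR-137 library STMN3 and VGF passed as higher and SNAP25 did not. DESeq2 called 3, SNAP25, STMN3 and VGF.

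**Figure D2:**
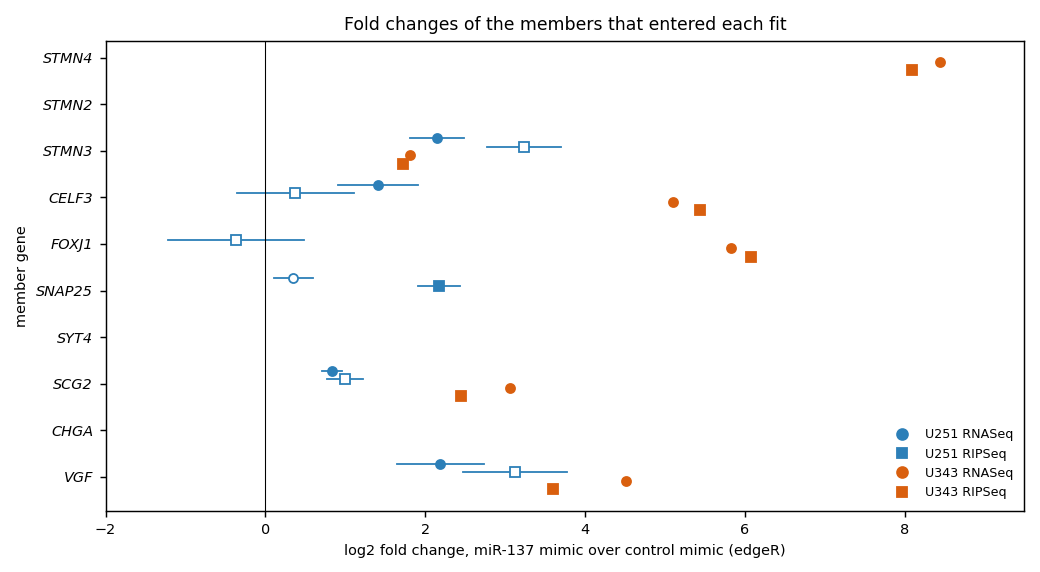
Fitted log2 fold change of miR-137 over control mimic for each gene that entered the fit, by line and assay, with bars of 1 SE for U251. Filled U251 symbols passed an edgeR adjusted p of 0.05, open ones did not, and U343 symbols carry no test because that contrast chose the genes. The U343 values run from 1.73 to 8.44 and the U251 values from -0.37 to 3.24.

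Whether the miR-137 effect differed between PABP-bound and total RNA was tested in U251 only. None of the 6 genes in that fit passed, while 0.134% of 14210 genes did (19 genes, and 2688 at an unadjusted p under 0.05) by edgeR. At an unadjusted p under 0.05 1 of the 6 passed, SNAP25, at a difference of 1.77 (RIPSeq minus RNASeq) on the log2 scale (SE 0.34, edgeR adjusted p = 0.0857). By DESeq2, 1 of the 6 passed. The ratio of RIPSeq to RNASeq CPM, which depends on each assay's own scaling and is not a bound fraction, was 0.502 for SNAP25 in controls and 1.78 with miR-137. In U343 the ratio of VGF was 4.25 in controls and 2.27 with miR-137, and that of STMN4 with miR-137 was 0.433.

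The 2 lines started from different levels of several of these genes. VGF stood at 28.7 ± 11.8 CPM in U343 RNASeq controls and at 0.219 ± 0.051 CPM in U251, and STMN3 at 43.6 ± 11.0 against 0.716 ± 0.110 CPM (SD, n = 2). SCG2 ran the other way, at 9.19 ± 5.18 CPM in U343 and 142 ± 3.34 CPM in U251, as did SNAP25 at 0.139 ± 0.048 and 3.62 ± 0.154 CPM. These levels were scaled within each line and prepared with different kits, so they stand side by side without a test.

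Genes outside the 10 whose U343 profile was most like their mean, over the 8 U343 libraries with each assay centred, were HBEGF, CFDP1, MAP1A, WDR41 and NES of 12749 candidates, with Pearson r from 0.998 to 0.999. The points share the split between control and miR-137 libraries, so r mainly records that split. HBEGF, a growth factor that activates the EGF receptor, had a log2 fold change of 1.95 in RNASeq and 1.81 in RIPSeq. MAP1A, a microtubule-associated protein of neurons, had 1.47 and 1.42, and NES, the intermediate filament nestin of neural progenitors, 1.58 and 1.37.

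Other genes of the same pathways were read from lists chosen with earlier results known, leaving out the 10. In U343 RNASeq the 2 miR-137 libraries differed far more (mean chi-square per gene 174.6) than the 2 controls (16.67). Calls there carry that spread, and a fit without 1 control library takes its spread from the miR-137 libraries alone. The counts that follow stand beside shares over all genes of 8.31% higher and 11.7% lower in U343 RNASeq, 28.5% and 27.8% in U343 RIPSeq, 28.7% and 29.0% in U251 RNASeq, and 0.944% and 0.263% in U251 RIPSeq. Nothing is read from a count as particular to a list. Some list genes met the low-count filter only with their miR-137 libraries, so their values, the counts of rises and the list medians lean upward. Among them were SYT5 and CELF5 in U343 RNASeq, SPAG6 in U343 RIPSeq, and HYDIN and RFX4 in U251 RNASeq. Others, such as S100B in U251 RNASeq, met it only with controls and lean downward. Of the neuronal cytoskeleton list 5 of 10 tested genes rose and 2 fell in U343 RNASeq, and 4 of 11 rose and 3 fell in RIPSeq, with list medians of 0.39 and 0.02 on the log2 scale beside 0.0225 and 0.00487 over all genes. In RIPSeq those counts lie close to the shares over all genes in both directions. GAP43, a growth-cone protein, had 145 and 122 reads in RNASeq controls and 878 and 974 with miR-137 (log2 fold change 2.78, SE 0.14, edgeR adjusted p = 0.00647). MAP1A rose by 1.47 (SE 0.10, edgeR adjusted p = 0.00647) in U343 RNASeq, and DCLK1, a microtubule-associated kinase, fell by 1.02 on the log2 scale (SE 0.15, adjusted p = 0.0199). In U251 RNASeq 2 of 8 rose and 4 fell, with MAP1A up by 1.36 and NEFL, a neurofilament subunit, down from 23709 and 25798 reads to 2666 and 2962. In U251 RIPSeq 1 of 10 passed, GAP43 (2.07, SE 0.25, edgeR adjusted p = 0.0481).

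Of the synaptic vesicle genes 5 of 14 tested rose and 1 fell in U343 RNASeq, and 7 of 14 rose and 1 fell in RIPSeq (list medians 0.52 and 0.48), where 8.31% and 28.5% of all genes were higher. SYP, a membrane protein of synaptic vesicles, went from 44 and 41 reads to 575 and 342 in RNASeq (log2 fold change 3.41, SE 0.34, edgeR adjusted p = 0.00936). It went from 86 and 80 to 604 and 566 reads in RIPSeq (2.95, SE 0.13, edgeR adjusted p = 3.37e-06). SYT5, a synaptotagmin, rose from 2 and 2 reads to 22 and 23 in RNASeq (3.40, SE 0.42, edgeR adjusted p = 0.0135), and SV2A, a vesicle glycoprotein, was the gene that fell in both. In U251 RNASeq 7 of 9 rose (6 by DESeq2), where 28.7% of all genes did, and SV2A and SYT1 fell. In U251 RIPSeq none of 14 passed by edgeR, 3 had an unadjusted p under 0.05, and DESeq2 called 2 higher and 1 lower.

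The dense-core granule list gave 3 of 7 higher in U343 RNASeq (CHGB, PCSK1 and PCSK1N), and 3 of 6 higher and 1 lower in RIPSeq (list medians 0.97 and 0.72). CHGB, a granin like CHGA, had 153 and 177 reads in RNASeq controls and 322 and 452 with miR-137 (log2 fold change 1.20, SE 0.27, edgeR adjusted p = 0.0474). PCSK1, a prohormone convertase, went from 11 and 10 to 30 and 33 reads (1.56, SE 0.29, edgeR adjusted p = 0.0310). CELF5, a neuronal relative of CELF3, went from 11 and 5 to 244 and 160 reads in U343 RNASeq (4.64, SE 0.41, edgeR adjusted p = 0.00802), and it was the only one of 5 tested CELF genes to pass there. In U251 RNASeq CELF1 fell by 0.65 on the log2 scale (SE 0.14, edgeR adjusted p = 0.00119).

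The genes of motile cilia are those that FOXJ1 is known to turn on. Of 16 tested in U343 RNASeq 1 rose, 1 fell and 14 did not pass, and of 15 in RIPSeq 4 rose and 1 fell (list medians 0.37 and 0.13), where 8.31% and 28.5% of all genes were higher and 11.7% and 27.8% lower. DNAH11, a dynein heavy chain of motile cilia, fell by 1.93 on the log2 scale in U343 RNASeq, from 3439 and 2533 reads to 835 and 732 (SE 0.12, edgeR adjusted p = 0.00647). In U251 RNASeq it rose by 1.99, from 280 and 301 reads to 968 and 644 (SE 0.18, edgeR adjusted p = 1.11e-06). SPAG6, a protein of the central pair of motile cilia, went from 5 and 4 to 19 and 23 reads in U343 RIPSeq (2.32, SE 0.39, edgeR adjusted p = 0.00167). Of 7 multiciliated markers 6 were under 1 CPM in every U343 library, and their summed level was 3.54 to 3.83 CPM in RNASeq controls and 5.70 to 6.15 CPM with miR-137. In RIPSeq that sum was 3.47 to 4.499 CPM in controls and 3.64 to 3.73 CPM with miR-137. RFX2, a transcription factor of cilium genes, was higher in U343 RNASeq (1.25, SE 0.18, edgeR adjusted p = 0.0187), and MYB and TP73 were lower. In U251 RNASeq 4 of 10 cilium genes and 3 of 7 cilium factors were higher and 1 factor, TP73, was lower, and of 6 granule genes 2 were higher and 1 lower, where 28.7% of all genes were higher and 29.0% lower. DESeq2 called 2 of those cilium genes, 2 of the factors and 1 of the granule genes higher and none of them lower.

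Neuronal markers rose with the 6 raised genes in U343 only in part. Their summed level was 676 to 815 CPM in RNASeq controls and 1149 to 1259 CPM with miR-137, most of it TUBB3, and 5 of the 9 markers, NEFL, NEFM, SYN1, ELAVL3 and ELAVL4, were under 1 CPM in every library. In U251 RNASeq the sum of 8 markers, without TUBB3, was 1585 to 1641 CPM in controls and 339 CPM in both miR-137 libraries, and NEFL made up most of it. In RIPSeq the sum was 844 to 903 CPM in controls and 987 to 1347 CPM with miR-137 in U343, and 1191 to 1392 against 657 to 669 CPM in U251. The part of such cells in the values of the 10 genes was not tested.

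**Figure D3:**
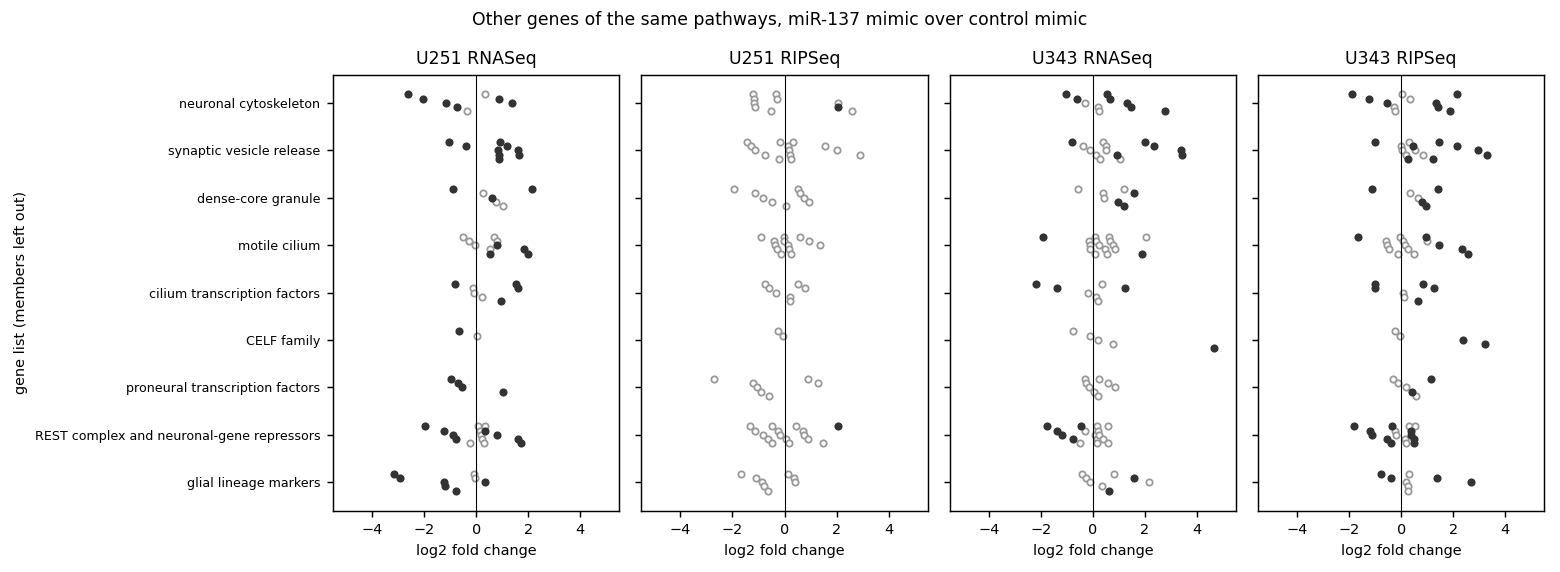
Log2 fold change of miR-137 over control mimic for the tested genes of 9 lists, by line and assay, with the 10 genes left out. Filled points passed an edgeR adjusted p of 0.05 and open points did not. Values run from -3.18 to 4.64, CELF5 in U343 RNASeq being the highest.

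Among the repressors of neuronal genes, REST was lower with miR-137 in U343 RNASeq (1690 and 1310 reads against 915 and 863, log2 fold change -0.76, SE 0.10, edgeR adjusted p = 0.0163). It was lower in U343 RIPSeq (-0.36, SE 0.11, edgeR adjusted p = 0.0245) and in U251 RNASeq (-0.90, SE 0.14, edgeR adjusted p = 0.000135). In U251 RIPSeq REST did not pass (-0.17, SE 0.60, edgeR adjusted p = 0.900). KDM1A, a histone demethylase of the REST corepressor complex, fell by 1.19 in U343 RNASeq (SE 0.09, edgeR adjusted p = 0.00724), by 1.19 in U343 RIPSeq and by 1.25 in U251 RNASeq on the log2 scale. As a whole the list had 5 of 16 lower and 0 higher in U343 RNASeq by edgeR (8 at an unadjusted p under 0.05, and 1 higher and 6 lower by DESeq2), and 4 higher and 6 lower of 16 in RIPSeq. Over all genes 11.7% were lower in U343 RNASeq, and 28.5% were higher and 27.8% lower in RIPSeq. In U251 RNASeq 4 of 15 were higher and 4 lower, where 28.7% and 29.0% of all genes were. The largest of these rises was that of ID2, an inhibitor of helix-loop-helix factors (log2 fold change 1.72, SE 0.13, edgeR adjusted p = 2.58e-07). SIN3A was higher too (0.79, SE 0.13, edgeR adjusted p = 0.000192). In U251 RIPSeq 1 of 16 passed, ID2, which was higher. Of the proneural transcription factors none of 8 passed in U343 RNASeq by edgeR (1 at an unadjusted p under 0.05, 1 higher by DESeq2), and SOX11 and POU3F2 were higher in RIPSeq.

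Of the glial lineage markers 5 of 8 fell in U251 RNASeq, where 29.0% of all genes did, among them GFAP, the intermediate filament of astrocytes, from 488 and 537 reads to 42 and 37 (log2 fold change -3.18, SE 0.18, edgeR adjusted p = 1.33e-08). In U343 RNASeq 2 of 8 rose, NES and CD44, and GFAP did not pass (-0.41, edgeR adjusted p = 0.0517). In U343 RIPSeq 2 of 8 were higher and 2 lower by edgeR, where 28.5% and 27.8% of all genes were. GFAP was among the lower ones, at a mean of 6208 CPM in controls and 3598 CPM with miR-137. The difference of the miR-137 effect between U343 and U251 in total RNA passed for 25.2% of 15550 genes by edgeR, and was not tested for the 10 genes, since U343 chose them. In U251 RIPSeq edgeR called none of the 9 granule genes (3 at an unadjusted p under 0.05, 1 lower by DESeq2), 13 cilium genes (1 and 0), 7 cilium factors (1 and 0), 2 CELF genes (0 and 0), 7 proneural factors (5, and 1 lower by DESeq2) or 8 glial markers (3 and 0).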

How the data were processed

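The authors depleted ribosomal RNA, sequenced 36 cycles, aligned reads to hg18 with RMAP and deposited raw read counts per gene, with RefSeq isoforms collapsed to 1 transcript a gene. U251 libraries used random hexamers and U343 libraries another cDNA kit. Groups come from the labels. The 10 genes, the gene lists and the marker lists were chosen with earlier results of these data known, and the deposited counts were otherwise used as they stand (a second line of 1 gene in the U251 tables was left out).

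Counts were fitted per line and assay with edgeR 4.0.16 in R 4.3.3 (TMM, filterByExpr, quasi-likelihood test), Benjamini-Hochberg adjusted over all genes tested, threshold 0.05; scripts were tested on simulated counts. Alternatives were DESeq2 1.42.0, upper-quartile scaling, filters of 1 read in any library and of 50 on average, the replicate number as a block (a replicate block), both assays of a line in 1 fit, leaving out each library, and the study's pairwise rule (Fisher's exact test, odds ratio over 2, adjusted p under 0.001 in 4 pairs) mirrored for rises. Each SE is the size of the log2 fold change over the square root of the edgeR quasi-likelihood F, and not a separate estimate. Ratios of summed reads were scaled to the summed TMM-adjusted library sizes and carry exact Clopper-Pearson 95% intervals. Likeness used log2 CPM with a prior count of 2 and genes with at least 50 reads on average in control or miR-137 libraries. The text names all 10 genes, up to 2 rises and 2 falls per list and experiment, and the 5 most alike genes. REST, SIN3A, PCSK1N and MAP1B, and the U343 RNASeq values of KDM1A and GFAP, fall outside that rule and were chosen after their values were seen. A gene that the rule names is not reported here. All 4 motifs searched are given. The U343 against U251 fit in total RNA was added after opposite calls in the lines were seen. Python 3.11.15 and pandas 2.3.3 read the tables. Replicate numbers correlated by 0.0327, 0.0355, 0.139 and 0.279 in U251 RNASeq, U251 RIPSeq, U343 RNASeq and U343 RIPSeq, over 2 pairs, and were not taken as pairs.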

Additional observations from a re-analysis of the deposited data

Results flagged for a closer look

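The miR-137 effect in total RNA went in opposite directions in U343 and U251 for 4 list genes outside the 10. These genes were picked by their opposite calls, and an edgeR test of line by transfection was then added on the same libraries. The difference of the 2 effects passed for each. Passing was close to fixed beforehand, so the p-values lend no further support. Over all genes 25.2% of 15550 passed the same test. DNAH11 rose in U251 and fell in U343, and the difference, U343 minus U251, was -3.93 on the log2 scale (SE 0.28, edgeR adjusted p = 0.000251). NES fell in U251 and rose in U343 (2.82, SE 0.20, edgeR adjusted p = 0.000242). CD44, a hyaluronan receptor, did likewise (1.39, SE 0.18, edgeR adjusted p = 0.00213), as did MAP1B, a microtubule-associated protein of axons (1.30, SE 0.19, edgeR adjusted p = 0.00277). The cDNA kit differed with the line, so line and kit cannot be told apart.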

How the results depend on the processing

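The U343 contrast chose the genes, so their calls there (0 to 6 in RNASeq without 1 library) are no sign of stability. In U343 RNASeq the fits without either control library called 0 genes (2829 and 2731 of 15088 at an unadjusted p under 0.05 in edgeR, the lone control assumed to vary like the other group). Genes higher and lower in U343 RNASeq, 1254 and 1764 as reported, were 1963 higher with DESeq2, 2265 and 2768 in the joint fit of the line, 311 and 595 by the pairwise rule, and 0 to 2937 and 0 to 3065 without 1 library. The pairwise rule gave 997 and 702 in U343 RIPSeq. In U251 RNASeq 4 of the genes were called, and 2 with DESeq2, 1 with 50 reads on average, 2 in the joint fit (1615 genes higher and 1336 lower) and 2 by the pairwise rule (1248 and 448). In U251 RIPSeq 1 was called (133 genes higher and 37 lower), and 3 with DESeq2 (589 and 534), 0 with upper-quartile scaling (4 at an unadjusted p under 0.05), 0 with 1 read in any library (54 and 5 genes, 4 of the 10 at an unadjusted p under 0.05), 4 in the joint fit (1142 and 1213) and 3 by the pairwise rule (704 and 302). Leaving out 1 library there gave 2 to 5 of the genes, 120 to 5623 genes higher and 7 to 5215 lower, and moved CELF3 between -0.36 and 1.59 and FOXJ1 between -1.17 and 1.17, the high ends without control replicate 1 and the low ends without control replicate 2. With the replicate block, 3 of the 10 were called in U251 RIPSeq (529 genes higher and 273 lower) and 4 in U251 RNASeq. The U251 assay difference, 19 genes and none of the 10, gave 717 genes and 1 of the 10 with DESeq2, 9 with upper-quartile scaling, 32 with 1 read in any library, 0 with the replicate block (2655 at an unadjusted p under 0.05 in edgeR), and 0 to 8604 genes and 0 to 3 of the 10 without 1 library (1304 to 1887 at an unadjusted p under 0.05 where 0 were called). With upper-quartile scaling the centre of all tested genes in U251 RNASeq went from 0.0153 to 0.156 (log2), and no list gene that passed changed sign under DESeq2 or upper-quartile scaling. Few reads limit STMN2, SYT4, CHGA and, in U343, SNAP25.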
